A study of Rattus norvegicus with 6 samples.

Results

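Collagen genes were followed in the vestibular epithelium of rats exposed to 3,3'-iminodipropionitrile (IDPN), a nitrile that damages the sensory hair cells (HCs) of the vestibular system. A collagen gene was any row of the gene count table whose symbol was Col, a type number, a and a chain number. This rule took 43 of the 32883 genes in the table: 11 fibrillar collagens, 8 basement membrane collagens and 24 others. A filter on low counts left 36 of the 43 for testing, among 14352 genes tested in all. The symbols Col6a3 and Col21a1 were on no row, so those chains were not analysed here.

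The samples were whole vestibular epithelia (2 utricles and 6 cristae pooled from each animal) of male adult Long-Evans rats with no genetic modification. The comparison asks which transcripts differ in the epithelium at the end of the exposure. In the IDPN-4wk group (n = 3) the rats had 20 mM IDPN in their drinking water for 4 weeks, and in the control group (n = 3) they drank plain water. A library is therefore 1 animal, and all 6 libraries carry the same batch label. The titles hold animal codes, in which the IDPN-4wk rats share a prefix that no control has. What the prefix marks is not stated, and an effect of it cannot be told apart from the treatment.

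Collagens are secreted proteins built of 3 chains wound into a triple helix. Fibrillar collagens (types I, II, III, V, XI, XXIV and XXVII) assemble into the banded fibrils of connective tissue and cartilage, and types IX, XII, XIV and their relatives, called FACITs, sit on the surface of such fibrils. Type IV collagen forms the sheet-like network of basement membranes, including the one under the vestibular sensory epithelium, while types XV and XVIII link that network to the stroma. The inner ear is known for its use of the cartilage-type chains II, IX and XI, which also build the tectorial membrane of the cochlea.

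Total counts ranged from 13358678 to 18561991 per library, and 3 counts, the most that a count of 0 allows, corresponded to between 0.155 and 0.216 CPM (read counts scaled to a common library size). Levels below are CPM after TMM scaling, not divided by transcript length, so they compare libraries and not genes. HC and supporting cell markers were present. By the thresholds given below, which called 6.62% of all genes lower, 5 of 8 HC markers and 4 of 8 supporting cell markers were called lower and none higher. Among those not called, the supporting cell marker Hes1 had a positive log2-fold change (0.36, Padj 0.0783). Their summed levels went from 1527–1645 CPM in the control rats to 717–973 CPM in the exposed rats for HCs, and from 9587–10666 to 5003–6259 CPM for supporting cells. Of 6 dark cell and melanocyte markers, 2 were called lower and 3 more had negative values, and their sum went from 1022–1314 to 706–776 CPM. The samples were bulk tissue, in which fewer cells of a type and less RNA per cell cannot be told apart.

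A few collagen genes differed between the groups, in opposite directions. Col4a5 and Col14a1 were downregulated and Col1a1 and Col5a3 were upregulated after IDPN. Col6a5 was also called lower, but it entered the test through the control group, in which it is high. The call required a Benjamini-Hochberg adjusted p (Padj) under 0.05 in the quasi-likelihood test of edgeR over all genes tested and a fold change over 1.5. Of the 36 collagens tested, 5 (13.9%) were called, against 9.71% of all genes. By direction, 3 were lower (background 6.62%) and 2 were higher (background 3.09%). Among the genes with all 6 libraries over the filter limit, a restriction chosen after seeing the data, 2 of 35 collagens were called lower and 2 higher, against 6.26% and 2.91% of the 13359 genes. With counts this small, the share called was close to the background. Over all genes, 950 were called lower and 444 higher, and 780 and 762 with library size alone as the scaling, a scaling that shifted the all-gene median from 0.02 to 0.13 on the log2 scale. The 5 collagens were called in the same direction under each scaling tried. At Padj under 0.05 without the fold threshold, 8 were lower and 4 higher, so 33.3% of the collagens tested against 19.4% of all genes, with 11.5% lower and 7.89% higher. The 7 that passed Padj without the fold threshold were near the limit: each had a Padj of 0.05 or more without at least 1 library, from 1 of the 6 libraries for Col8a2 (control replicate 3) to 5 for Col3a1 (any but control replicate 3), and the highest such Padj was 0.102. With library size alone, Col4a4 (Padj 0.0529) and Col9a2 (Padj 0.0772) also missed the threshold. Control and IDPN-4wk libraries did not overlap for 13 lower and 6 higher collagens (52.8%), against 37.8% of all genes, of which 19.3% were lower and 18.5% higher. On the log2 scale the median change was -0.16 over the collagens and 0.02 over all genes tested, and 24 collagens had a negative and 12 a positive value.

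**Figure D1:**
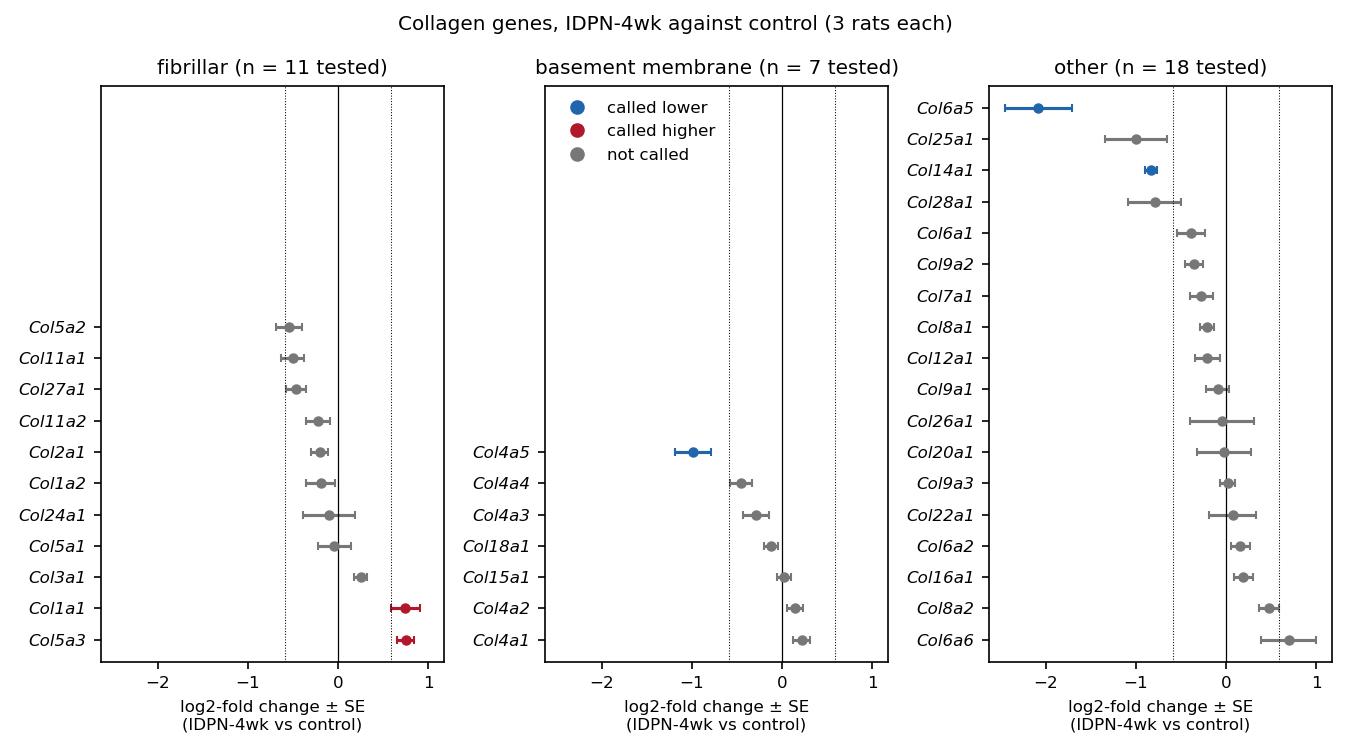
Log2-fold change ± SE (IDPN-4wk against control, n = 3 rats per group) on the horizontal axis for the 36 collagen genes tested, in panels by class. Colours mark the genes past both thresholds, and dotted lines mark the 1.5-fold limits. Col6a5, Col4a5 and Col14a1 lie left of the lower limit as called genes, Col1a1 and Col5a3 right of the upper limit, and most others lie between the limits.

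Collagen transcripts together took a small part of each library. They held 0.676, 0.705 and 0.693% of the counts in the control libraries and 0.587, 0.631 and 0.757% in the IDPN-4wk libraries, so the IDPN-4wk range enclosed the control range. Much of that came from the cartilage-type chains. The 6 genes of types II, IX and XI summed to 5654 ± 224 CPM (SD, n = 3) in control and 4893 ± 867 CPM in the exposed rats.

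Among the fibrillar collagens, all 11 genes were tested, and 2 were called (18.2%), both higher, against 3.09% of all genes called higher. Fold changes of both signs occurred, also between chains of the same type. Col1a1 and Col5a3 were upregulated and Col3a1 rose by less than 1.5-fold, while Col5a2, Col11a1 and Col27a1 fell by less than 1.5-fold. The remaining Col1a2, Col2a1, Col5a1, Col11a2 and Col24a1 had Padj between 0.161 and 0.894. The class median was -0.19, with 8 negative and 3 positive values ranging from -0.54 to 0.75. Scaling by library size alone gave -0.083, and leaving out IDPN-4wk replicate 3 or replicate 1 gave -0.32 and -0.10. The class sum was 3327 ± 77.2 CPM (SD, n = 3) in control and 2896 ± 496 CPM in the exposed rats, or 87.0% of control, and the highest IDPN-4wk library exceeded all controls.

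Col1a1 (ENSRNOG00000003897) encodes the chain that supplies 2 of the 3 strands of type I collagen, the main fibril of skin and bone. Its levels were 42.0, 34.1 and 39.3 CPM in the control rats and 74.0, 72.5 and 46.9 CPM in the exposed rats. The groups did not overlap, and IDPN-4wk replicate 3 lay nearest to the controls. The means were 38.5 ± 4.00 and 64.4 ± 15.2 CPM (SD, n = 3), a log2-fold change of 0.74 (SE 0.159, Padj 0.00835).

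The partner chain Col1a2, which supplies the remaining strand of type I collagen, was at 84.5, 79.0 and 75.3 CPM in the control rats and 62.0, 92.1 and 54.0 CPM in the exposed rats. These groups overlapped, with IDPN-4wk replicate 2 above and the other two below all controls (log2-fold change -0.19, SE 0.161, Padj 0.442).

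Col5a3 (ENSRNOG00000020525), a less common chain of type V collagen, the collagen that starts and limits fibrils of type I, showed the clearest rise. It was at 32.0, 31.3 and 30.9 CPM in the control rats and 51.0, 48.8 and 58.5 CPM in the exposed rats. All IDPN-4wk values stood above the narrow control range. The means were 31.4 ± 0.555 and 52.8 ± 5.09 CPM (SD, n = 3), a log2-fold change of 0.75 (SE 0.0952, Padj 4.09e-04).

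The other type V chains had values at or below 0 on the log2 scale. Col5a2 was at 41.6, 29.4 and 35.5 CPM in the control rats and 21.6, 23.5 and 27.9 CPM in the exposed rats, all IDPN-4wk values lying below all controls (log2-fold change -0.54, SE 0.145, Padj 0.0236). Col5a1 averaged 15.3 ± 2.96 and 14.8 ± 3.00 CPM (SD, n = 3), with overlapping groups and Padj 0.894. Col3a1, whose homotrimer accompanies type I in soft tissue, was at 110, 106 and 118 CPM in the control rats and 130, 137 and 131 CPM in the exposed rats. The groups were separate and the difference was small, with a log2-fold change of 0.25 (SE 0.0708, Padj 0.0302). The 6 genes of types I, III and V summed to 312 ± 16.7 CPM in the control rats and 359 ± 27.2 CPM in the exposed rats (SD, n = 3), with no overlap.

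Markers of fibroblasts, which make these chains in many tissues, were listed beside them. Of 10 fibroblast markers tested, 3 were called, where 9.71% of all genes were. Dpt (log2-fold change 1.09, Padj 0.00495) and Mfap5 (0.66, Padj 0.0317) were upregulated and Lum (-1.42, Padj 0.00633) was downregulated. Pdgfra, the highest of the list in CPM, fell by less than 1.5-fold (-0.33, Padj 0.0171), and Tbx18 rose by less (0.23, Padj 0.0494). Of the 10, 7 had positive and 3 negative values. The summed level of the 10 markers was 869–1032 CPM in the control rats and 829–919 CPM in the exposed rats, and no marker of the list was at 0. Their part in the Col1a1, Col3a1 and Col5a3 values was not tested.

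The cartilage-type fibrillar chains all had negative fold changes. Col11a1, a type XI chain that sets the diameter of cartilage fibrils, was at 162, 191 and 169 CPM in the control rats and 111, 106 and 152 CPM in the exposed rats. All IDPN-4wk values were below all controls (log2-fold change -0.50, SE 0.127, Padj 0.0193). Col27a1, a fibrillar collagen of developing cartilage, was at 239, 239 and 262 CPM in the control rats and 160, 163 and 213 CPM in the exposed rats, again without overlap (-0.46, SE 0.108, Padj 0.0130). In both genes, IDPN-4wk replicate 3 was nearest to the controls. Without that library Col11a1, Col27a1 and Col5a2 also passed the fold threshold, and 6 collagens were called lower in place of 3.

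Col11a2, which partners Col11a1, had 1962, 2040 and 1888 CPM in the control rats and 1387, 1549 and 2126 CPM in the exposed rats. IDPN-4wk replicates 1 and 2 were below and replicate 3 was above all controls, and the log2-fold change of -0.22 had an SE of 0.132 and Padj 0.280. Col2a1, the main collagen of cartilage, had 576, 647 and 652 CPM in the control rats and 493, 517 and 618 CPM in the exposed rats. Here the groups overlapped through IDPN-4wk replicate 3 (-0.20, SE 0.0947, Padj 0.161). Without that library, the log2-fold changes were -0.43 for Col11a2 (Padj 0.00417) and -0.32 for Col2a1 (Padj 0.0199).

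Markers of cartilage and bone, given beside these chains, had values of both signs. Of 9 tested, 3 were called (33.3%, against 9.71% of all genes). Acan (log2-fold change -2.07, Padj 0.00106) and Cnmd (-0.62, Padj 5.89e-04) were downregulated, and Matn3 was upregulated (0, 3 and 3 counts in control and 34, 29 and 31 in the exposed rats, Padj 0.00238). Matn3 passed the filter through the exposed group alone, so its call supports no count over the list. The other 2 calls were both lower, where 6.62% of all genes were called lower. Comp (0.59, Padj 0.142) and Hapln1 (0.99, Padj 0.0682) were above all controls in each exposed rat without passing, and the list median was -0.05. The summed level of the list was 1808–1991 CPM in the control rats and 1177–1377 CPM in the exposed rats, most of it from Cnmd. The defining cartilage gene Matn1 and the bone genes Bglap and Ibsp were at 0 or few counts and were removed by the filter. The part of these markers in the type II, IX and XI values was not tested.

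**Figure D2:**
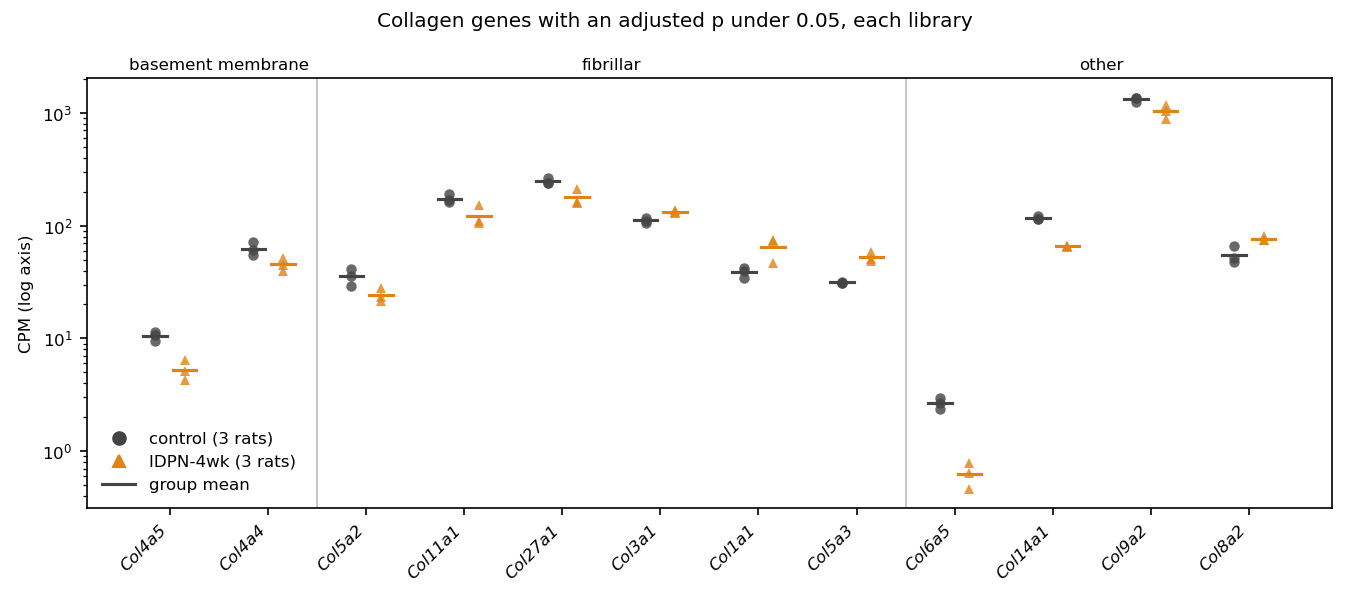
CPM on a log axis in each library (a point per rat, circles for 3 control and triangles for 3 IDPN-4wk rats, the bar marking the group mean) for the 12 collagen genes with Padj under 0.05, by class. The groups do not overlap for any of the 12, and the widest gap is that of Col6a5, with 2.38 to 2.97 CPM in the control rats and 0.464 to 0.791 CPM in the exposed rats.

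The basement membrane collagens held 7 tested genes, of which 1, Col4a5, was downregulated (14.3%, against 6.62% of all genes) and none was upregulated. With a single call, nothing is read from that share. Col4a4 fell by less than 1.5-fold. The class sum was 544 ± 8.37 CPM in the control rats and 536 ± 27.3 CPM in the exposed rats (SD, n = 3), or 98.6% of control, and the class median was -0.12. For the 5 type IV chains tested, the median was -0.29 and the sum 300 ± 3.32 and 306 ± 28.3 CPM.

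The 6 type IV chains lie in the genome as 3 pairs of genes, each pair head to head and transcribed away from each other. Their start regions are shown because Col4a1 and Col4a2 had fold changes of the same sign, as did Col4a3 and Col4a4. Only Col4a4 among them had a Padj under 0.05, and a link between start regions and fold changes was not tested. The start regions were read from RefSeq (GRCr8), 250 bases before to 50 bases after each start, 5′ to 3′ on the strand of the gene. Of the 43 collagen genes, 34 had such a window. Starts of Col4a1 and Col4a2 are 77 bases apart, and their windows share the 176 bases in capitals:
Col4a1 (chr16:84885347-84885646, plus strand): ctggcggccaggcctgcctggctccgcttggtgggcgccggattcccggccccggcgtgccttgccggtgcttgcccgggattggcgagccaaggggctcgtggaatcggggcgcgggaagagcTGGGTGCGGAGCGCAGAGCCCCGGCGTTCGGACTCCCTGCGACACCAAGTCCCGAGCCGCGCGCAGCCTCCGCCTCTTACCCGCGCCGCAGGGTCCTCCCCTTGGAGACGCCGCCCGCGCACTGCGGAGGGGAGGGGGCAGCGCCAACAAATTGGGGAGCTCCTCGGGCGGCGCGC
Col4a2 (chr16:84885471-84885770, minus strand): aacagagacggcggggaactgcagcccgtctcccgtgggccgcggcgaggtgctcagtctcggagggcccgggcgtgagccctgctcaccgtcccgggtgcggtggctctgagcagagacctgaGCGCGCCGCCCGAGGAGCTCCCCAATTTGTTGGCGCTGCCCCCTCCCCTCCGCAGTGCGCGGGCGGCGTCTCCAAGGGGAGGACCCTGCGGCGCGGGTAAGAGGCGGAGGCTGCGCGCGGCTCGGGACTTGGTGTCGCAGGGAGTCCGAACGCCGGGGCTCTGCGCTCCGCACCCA

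Col4a3 and Col4a4 start 413 bases apart, and their windows share only the outer 88 bases in capitals:
Col4a3 (chr9:91323740-91324039, plus strand): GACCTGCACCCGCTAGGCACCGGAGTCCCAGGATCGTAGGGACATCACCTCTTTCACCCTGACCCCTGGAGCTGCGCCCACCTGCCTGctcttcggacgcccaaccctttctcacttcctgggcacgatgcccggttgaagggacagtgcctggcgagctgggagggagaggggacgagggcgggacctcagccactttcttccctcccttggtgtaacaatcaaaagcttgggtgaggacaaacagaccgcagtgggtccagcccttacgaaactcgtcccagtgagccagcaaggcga
Col4a4 (chr9:91323528-91323827, minus strand): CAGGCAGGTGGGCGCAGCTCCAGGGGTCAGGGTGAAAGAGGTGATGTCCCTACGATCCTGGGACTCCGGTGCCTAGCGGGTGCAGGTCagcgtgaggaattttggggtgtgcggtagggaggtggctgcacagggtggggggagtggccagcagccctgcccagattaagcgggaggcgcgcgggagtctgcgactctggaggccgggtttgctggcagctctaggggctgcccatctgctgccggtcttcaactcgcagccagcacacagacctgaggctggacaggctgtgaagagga

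Col4a5 and Col4a6 start 1415 bases apart, and their windows share no base. The Col4a5 window holds a single GC box, the letters GGGCGG on either strand, in capitals:
Col4a5 (chrX:109907109-109907408, plus strand): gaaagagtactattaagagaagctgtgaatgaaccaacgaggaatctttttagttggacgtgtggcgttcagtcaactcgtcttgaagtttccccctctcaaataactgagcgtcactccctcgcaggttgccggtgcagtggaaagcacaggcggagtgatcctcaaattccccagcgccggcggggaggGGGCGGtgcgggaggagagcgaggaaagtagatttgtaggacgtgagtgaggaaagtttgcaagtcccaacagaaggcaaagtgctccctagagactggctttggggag

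The Col4a1 and Col4a2 chains form the network found in nearly all basement membranes. Col4a1 was at 152, 145 and 147 CPM in the control rats and 191, 149 and 176 CPM in the exposed rats. Col4a2 averaged 61.9 ± 4.30 and 68.6 ± 4.68 CPM (SD, n = 3). Both groups overlapped and both log2-fold changes were positive, 0.22 (SE 0.0910, Padj 0.123) and 0.15 (SE 0.0867, Padj 0.274).

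The Col4a3, Col4a4 and Col4a5 chains make a specialised network of the kidney filter, the cochlea and a few other sites, and loss of any of them causes Alport syndrome, with hearing loss. Col4a5 (ENSRNOG00000018951) was at 9.56, 11.3 and 10.8 CPM in the control rats and 5.18, 6.45 and 4.25 CPM in the exposed rats. The IDPN-4wk values were about 50.1% of control and did not overlap with it. The means were 10.6 ± 0.911 and 5.29 ± 1.10 CPM (SD, n = 3), a log2-fold change of -0.99 (SE 0.202, Padj 0.00647).

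Col4a4 was at 54.5, 71.6 and 60.2 CPM in the control rats and 44.6, 39.5 and 51.8 CPM in the exposed rats. The groups did not overlap (log2-fold change -0.46, SE 0.124, Padj 0.0261). Col4a3 averaged 17.3 ± 2.88 and 14.1 ± 0.862 CPM (SD, n = 3), with overlapping groups (-0.29, SE 0.149, Padj 0.204). All 3 chains of this network had negative values, and 2 of them passed Padj under 0.05, Col4a4 not with library size alone. The partner of Col4a5 in the genome, Col4a6, was near the limit of detection, with 3, 12 and 4 counts in the control rats and 8, 0 and 2 counts in the exposed rats.

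Types XV and XVIII, whose C-terminal ends include endostatin, did not pass. Col18a1 was at 163, 176 and 161 CPM in the control rats and 142, 159 and 158 CPM in the exposed rats, each IDPN-4wk value under the lowest control (log2-fold change -0.12, SE 0.0748, Padj 0.278). Col15a1 was at 75.5, 72.7 and 81.4 CPM in the control rats and 83.2, 72.3 and 77.5 CPM in the exposed rats, with fully mixed groups (0.02, SE 0.0823, Padj 0.890).

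Vessels also carry type IV collagen, so their markers are given. Of 7 endothelial markers tested, Flt1 was downregulated (14.3%, against 6.62% of all genes), and the summed level was 471–644 CPM in the control rats and 439–486 CPM in the exposed rats. Of 8 pericyte markers, Kcnj8, Abcc9 and Myh11 were downregulated (37.5%, against 6.62% of all genes), and the sum was 248–285 and 238–271 CPM. No tested marker of either list was at 0 in all libraries. Their part in the type IV values was not tested.

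Of the 24 other collagens, 18 were tested. Col14a1 was downregulated, and Col6a5 was called lower with the limit on its filter given above, so 2 calls with it and 1 without it, where 6.62% of all genes were called lower. The class median was -0.15, with 12 negative and 6 positive values, and it was -0.044 with library size alone and -0.29 without IDPN-4wk replicate 3. The class sum was 3316 ± 118 CPM in the control rats and 2918 ± 405 CPM in the exposed rats (SD, n = 3), or 88.0% of control, with overlapping groups.

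FACIT collagens gave the largest part of that sum, and 8 of 9 were tested. Col14a1 (ENSRNOG00000026415), which binds the surface of type I fibrils in tissue under load, was at 115, 115 and 122 CPM in the control rats and 64.3, 66.3 and 66.6 CPM in the exposed rats. Both groups were tight and far apart. The means were 117 ± 3.92 and 65.7 ± 1.21 CPM (SD, n = 3), a log2-fold change of -0.83 (SE 0.0693, Padj 3.72e-05), the smallest Padj among the collagens.

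The type IX chains, which decorate type II fibrils, gave 1 gene under the Padj threshold. Col9a2 was at 1263, 1362 and 1347 CPM in the control rats and 876, 1045 and 1173 CPM in the exposed rats, without overlap (log2-fold change -0.36, Padj 0.0290). Col9a1 was at 951, 1117 and 1033 CPM in the control rats and 858, 847 and 1199 CPM in the exposed rats (-0.10, SE 0.127, Padj 0.644, and -0.29 with Padj 0.0345 without IDPN-4wk replicate 3). Col9a3 was at 535, 536 and 533 CPM in the control rats and 484, 541 and 599 CPM in the exposed rats (0.02, SE 0.0835, Padj 0.899). Only Col9a2 was separate between groups among these 3 chains, and IDPN-4wk replicate 3 was the highest exposed library in each of them. The other FACITs tested, Col12a1, Col16a1, Col20a1 and Col22a1, had log2-fold changes from -0.21 to 0.19 and Padj of at least 0.250.

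Type VI collagen forms beaded filaments next to basement membranes. Its chain Col6a5 (ENSRNOG00000010663), which can take the place of the Col6a3 chain, was at 2.65, 2.38 and 2.97 CPM in the control rats and 0.791, 0.464 and 0.644 CPM in the exposed rats. All IDPN-4wk values were far below all controls, at a mean of 23.7% of control. The means were 2.67 ± 0.299 and 0.633 ± 0.164 CPM (SD, n = 3), a log2-fold change of -2.08 (SE 0.371, Padj 0.00312). The gene was low: 41, 34 and 42 counts in the control rats and 11, 9 and 10 counts in the exposed rats, so it was tested because of the control group, in which it is high, and its call supports no count over the collagens. The other type VI chains tested did not pass. Col6a1 had a log2-fold change of -0.39 (Padj 0.116), Col6a2 a log2-fold change of 0.16 (Padj 0.330) and Col6a6 one of 0.69 (Padj 0.144).

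Start regions of the 2 called genes outside type IV that had a window in the RefSeq table are shown with GC boxes and CCAAT boxes (CCAAT on either strand) in capitals. The upregulated Col5a3 holds 3 GC boxes and 1 CCAAT box, and the downregulated Col6a5 holds no GC box and 1 CCAAT box:
Col5a3 (chr8:27625899-27626198, minus strand): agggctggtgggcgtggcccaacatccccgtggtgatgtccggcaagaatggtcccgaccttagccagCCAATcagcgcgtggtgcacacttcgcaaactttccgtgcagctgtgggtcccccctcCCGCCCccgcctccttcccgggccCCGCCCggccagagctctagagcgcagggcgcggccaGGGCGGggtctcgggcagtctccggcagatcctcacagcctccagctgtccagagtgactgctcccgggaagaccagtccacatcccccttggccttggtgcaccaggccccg
Col6a5 (chr8:115462795-115463094, minus strand): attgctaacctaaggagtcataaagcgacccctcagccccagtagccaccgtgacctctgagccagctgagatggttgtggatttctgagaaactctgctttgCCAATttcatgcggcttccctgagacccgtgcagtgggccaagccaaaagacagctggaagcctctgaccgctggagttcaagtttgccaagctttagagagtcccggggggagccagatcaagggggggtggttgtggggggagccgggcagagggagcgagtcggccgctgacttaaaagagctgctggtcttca

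A GC box was in 19 of 34 collagen windows (55.9%) and in 33.1% of the 33469 windows of the table. A CCAAT box was in 11 (32.4%, against 37.5%), and the TATA box letters TATAAA were in 4 (11.8%, against 14.2%). These are descriptions of letters in a window and not of binding.

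The short-chain collagens of type VIII, which form hexagonal lattices under endothelia, had fold changes of opposite sign. Col8a2 was at 65.7, 47.8 and 52.2 CPM in the control rats and 74.6, 74.8 and 81.3 CPM in the exposed rats, without overlap (log2-fold change 0.48, SE 0.113, Padj 0.0141). Col8a1 averaged 71.1 ± 2.11 and 61.4 ± 3.29 CPM (SD, n = 3), also without overlap, but its log2-fold change of -0.21 (SE 0.0773) had Padj 0.0797.

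Of the remaining types, Col25a1, a transmembrane collagen of neurons, averaged 2.59 ± 0.666 and 1.29 ± 0.171 CPM, or 49.9% of control (SE of the log2-fold change 0.347, Padj 0.0668). Col28a1, found around peripheral glia, averaged 3.40 ± 0.387 and 1.97 ± 0.423 CPM (-0.79, SE 0.295, Padj 0.0858). Both had separate groups and missed the threshold. Col7a1, the anchoring fibril of skin, and Col26a1 had log2-fold changes of -0.28 and -0.05 (Padj 0.151 and 0.944). Beside Col28a1, the sum of 8 Schwann cell markers was 8633–10884 CPM in the control rats and 5961–8868 CPM in the exposed rats, and Pmp22 and Cdh19 were downregulated (25%, against 6.62% of all genes). Mbp and Prx fell and Erbb3 rose by less than 1.5-fold (0.32, Padj 0.0218) and Sox10 had a value of 0.19 (Padj 0.113). Their part in the Col28a1 value was not tested.

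The filter removed 7 collagens: Col4a6, Col6a4, Col10a1, Col13a1, Col17a1, Col19a1 and Col23a1. Col13a1, a transmembrane collagen of the neuromuscular junction, was the clearest of them, with 7, 11 and 25 counts in the control rats and 0, 2 and 2 counts in the exposed rats. All IDPN-4wk values were below all controls, and in the fit without a filter Padj was 0.0153 (DESeq2, 0.00952). The other 6 had between 0 and 12 counts in every library and no call in the fit without a filter.

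**Figure D3:**
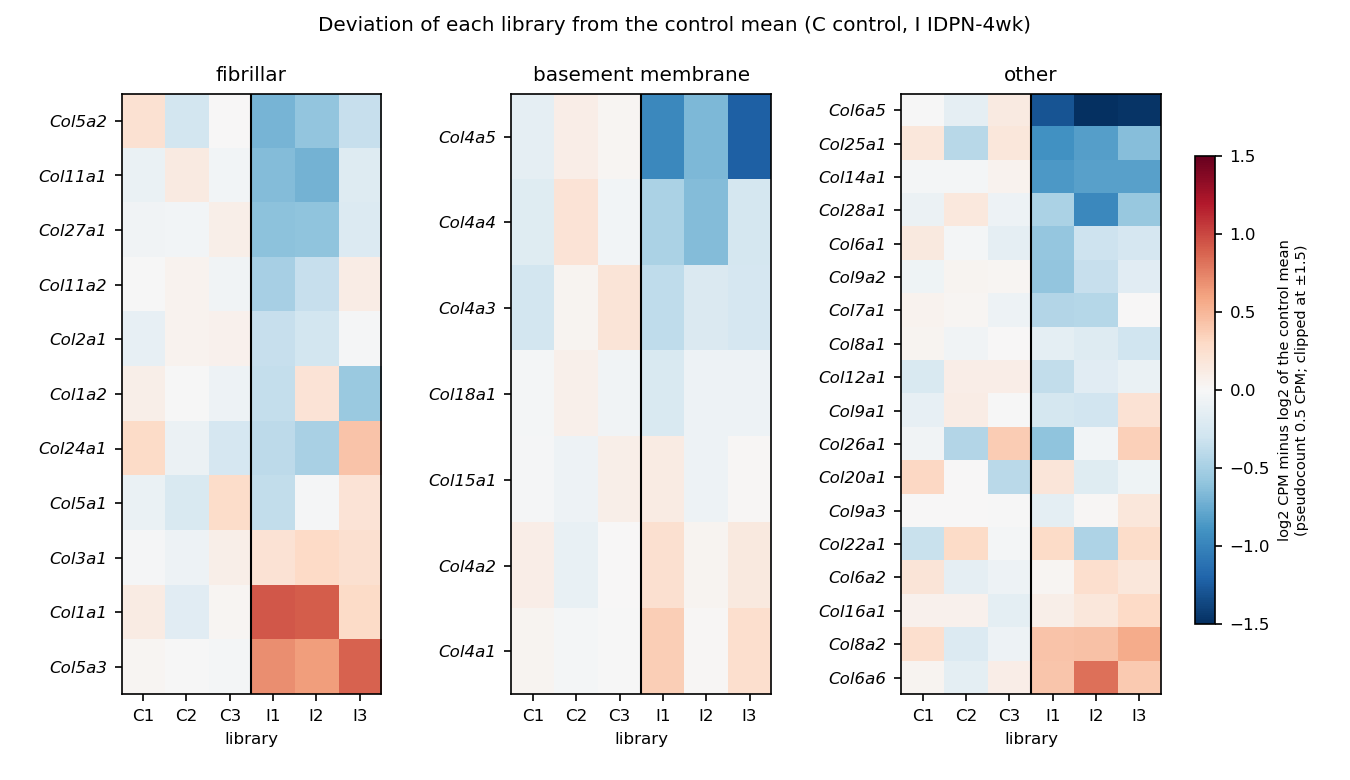
Log2 CPM of each library minus log2 of the control mean (pseudocount 0.5 CPM, colours clipped at 1.5) for the 36 tested collagens, in rows by class and with the 3 control libraries left of the 3 IDPN-4wk libraries. The blue rows of Col6a5, Col4a5 and Col14a1 and the red rows of Col1a1 and Col5a3 hold in all IDPN-4wk libraries, and the column of IDPN-4wk replicate 3 is paler in rows such as Col11a1 and Col27a1.

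The exposed rats differed among themselves more for fibrillar collagens than the controls did. The median coefficient of variation over the 11 fibrillar genes was 6.80% among control and 20.2% among IDPN-4wk libraries, against 9.66 and 10.5% over all genes tested. Over the 24 collagens with a negative fold change, the median deviation from the control mean was -0.48 in IDPN-4wk replicate 1, -0.34 in replicate 2 and -0.20 in replicate 3 on the log2 scale. Replicate 3 was the highest exposed library for 16 of these 24 genes. It was also nearest to the control mean for 18 of the 36 tested. The summed HC markers were highest in the same library among the exposed, at 973 CPM against 717 and 781 CPM. The cause of this spread was not tested.

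Chains of a single collagen type are made in set proportions in the protein, so the log2 ratio of their CPM was followed in each library for 8 pairs. The ratio is without length correction, so only its change between groups can be read. It separated the groups for 5 pairs, higher after IDPN for 2 and lower for 3. Such a share was not computed for pairs of other genes. Taken singly, 37.8% of all genes and 52.8% of the collagens tested had separate groups, so nothing is read from the number of pairs. The ratios are given as values, without a test.

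The ratio of Col1a1 to Col1a2 was -1.01, -1.21 and -0.94 in control and 0.25, -0.35 and -0.20 in IDPN-4wk libraries. It moved furthest of the 8 pairs, by 0.95, from -1.05 ± 0.141 to -0.10 ± 0.314 (SD, n = 3). The Col8a1 to Col8a2 ratio went from 0.38 ± 0.200 to -0.32 ± 0.147, and the Col6a1 to Col6a2 ratio from -1.93 ± 0.0907 to -2.48 ± 0.104. Both were lower in all exposed rats. Smaller shifts without overlap were seen for Col5a1 to Col5a2, by 0.49, and for Col11a1 to Col11a2, by -0.27. The ratios of the head-to-head pairs Col4a1 to Col4a2 and Col4a3 to Col4a4 overlapped between groups, with differences of 0.06 and 0.17, and so did Col9a1 to Col9a2, with 0.26.

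**Figure D4:**
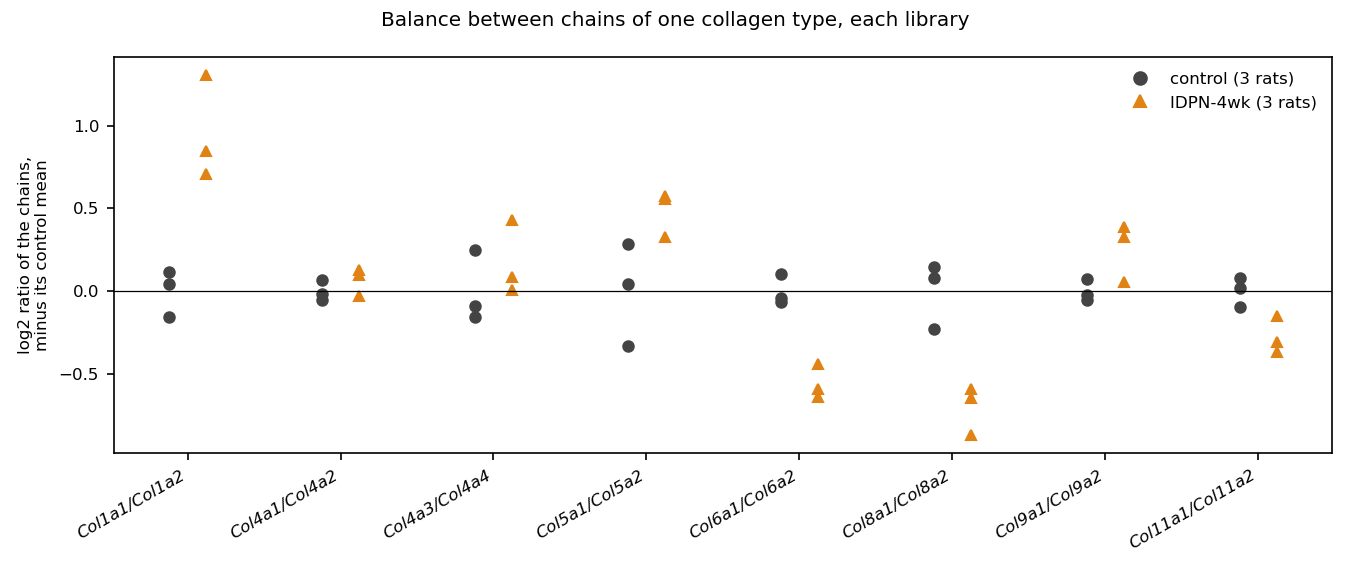
Log2 ratio of the CPM of 2 chains of the same collagen type, minus the control mean of that ratio, on the vertical axis, with a point per library (circles for 3 control and triangles for 3 IDPN-4wk rats) for 8 chain pairs. The Col1a1 to Col1a2 points of IDPN-4wk lie above all controls, the Col6a1 to Col6a2 and Col8a1 to Col8a2 points lie below them, and the Col4a1 to Col4a2 points overlap.

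Genes that make collagen inside the cell, namely hydroxylases, glycosyltransferases and chaperones, were next examined. Of 19 tested, 1 was called (5.26%, against 9.71% of all genes). A negative value was seen for 13 of them (median -0.17), and for 6780 of all 14352 genes tested. P3h2, a prolyl 3-hydroxylase that acts on type IV collagen, was downregulated, from 11.7, 7.48 and 9.70 CPM in the control rats to 2.95, 3.15 and 6.05 CPM in the exposed rats. The groups were separate (log2-fold change -1.25, SE 0.294, Padj 0.0136), but the call was lost without IDPN-4wk replicate 1 (Padj 0.0556) or replicate 2 (Padj 0.0532). Serpinh1, the collagen chaperone HSP47, rose by less than 1.5-fold (0.52, Padj 0.00327), and so did the galactosyltransferase Colgalt1 (0.31, Padj 0.0282). The gene with the highest CPM of the list, P4hb, a subunit of prolyl 4-hydroxylase, fell by less than 1.5-fold (-0.34, Padj 0.0105), as did Colgalt2, Fkbp14, P3h3 and Plod3. Ppib, an isomerase of the collagen hydroxylation complex, had a value of -0.27 (Padj 0.0818).

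Of the enzymes that trim and cross-link collagen outside the cell, 14 were tested. Of these, 4 were downregulated and 2 upregulated (42.9% in all, against 9.71% of all genes). The 2 lists together gave 7 of 33 (21.2%), against 9.71% of all genes, and 6 of 32 (18.8%) with all libraries over the filter limit, against 9.17%. Adamts2, which removes the N-terminal propeptide of fibrillar procollagens, was at 129, 146 and 120 CPM in the control rats and 34.7, 47.1 and 62.6 CPM in the exposed rats. Each IDPN-4wk value was well below each control (log2-fold change -1.45, SE 0.170, Padj 2.47e-04).

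The C-terminal propeptide is removed by the tolloid family. Tll1 was at 6.91, 6.36 and 4.53 CPM in the control rats and 2.01, 1.03 and 2.06 CPM in the exposed rats (-1.82, SE 0.324, Padj 0.00313). Tll2 had 16, 10 and 12 counts in the control rats and 3, 2 and 0 counts in the exposed rats (Padj 0.0161, and 0.0539 without IDPN-4wk replicate 2). Tll2 passed the filter through the control group alone, and with 3 counts or fewer in each exposed rat its fold change is not given. The main family member, Bmp1, had a log2-fold change of -0.08 (Padj 0.682).

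Pcolce, a secreted enhancer of the C-terminal cleavage, went the other way, from 95.2, 75.7 and 87.8 CPM in the control rats to 137, 144 and 119 CPM in the exposed rats. The groups were separate (0.63, SE 0.101, Padj 0.00177), and without control replicate 2 or IDPN-4wk replicate 2 the change stood under 1.5-fold (0.54 and 0.56). Lox, the lysyl oxidase that starts cross-linking, was at 11.6, 14.1 and 17.0 CPM in the control rats and 32.6, 28.8 and 18.2 CPM in the exposed rats (0.90, SE 0.212, Padj 0.0139, and 0.0606 without IDPN-4wk replicate 1). Its relative Loxl2 was downregulated, from 2.71, 4.19 and 4.32 CPM to 1.44, 0.980 and 1.55 CPM (-1.51, SE 0.334, Padj 0.0103). Sparc, a collagen-binding glycoprotein, had a value of -0.24 (Padj 0.0461, and 0.206 with library size alone), and Loxl1 had a value of 0.21 (Padj 0.129).

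**Figure D5:**
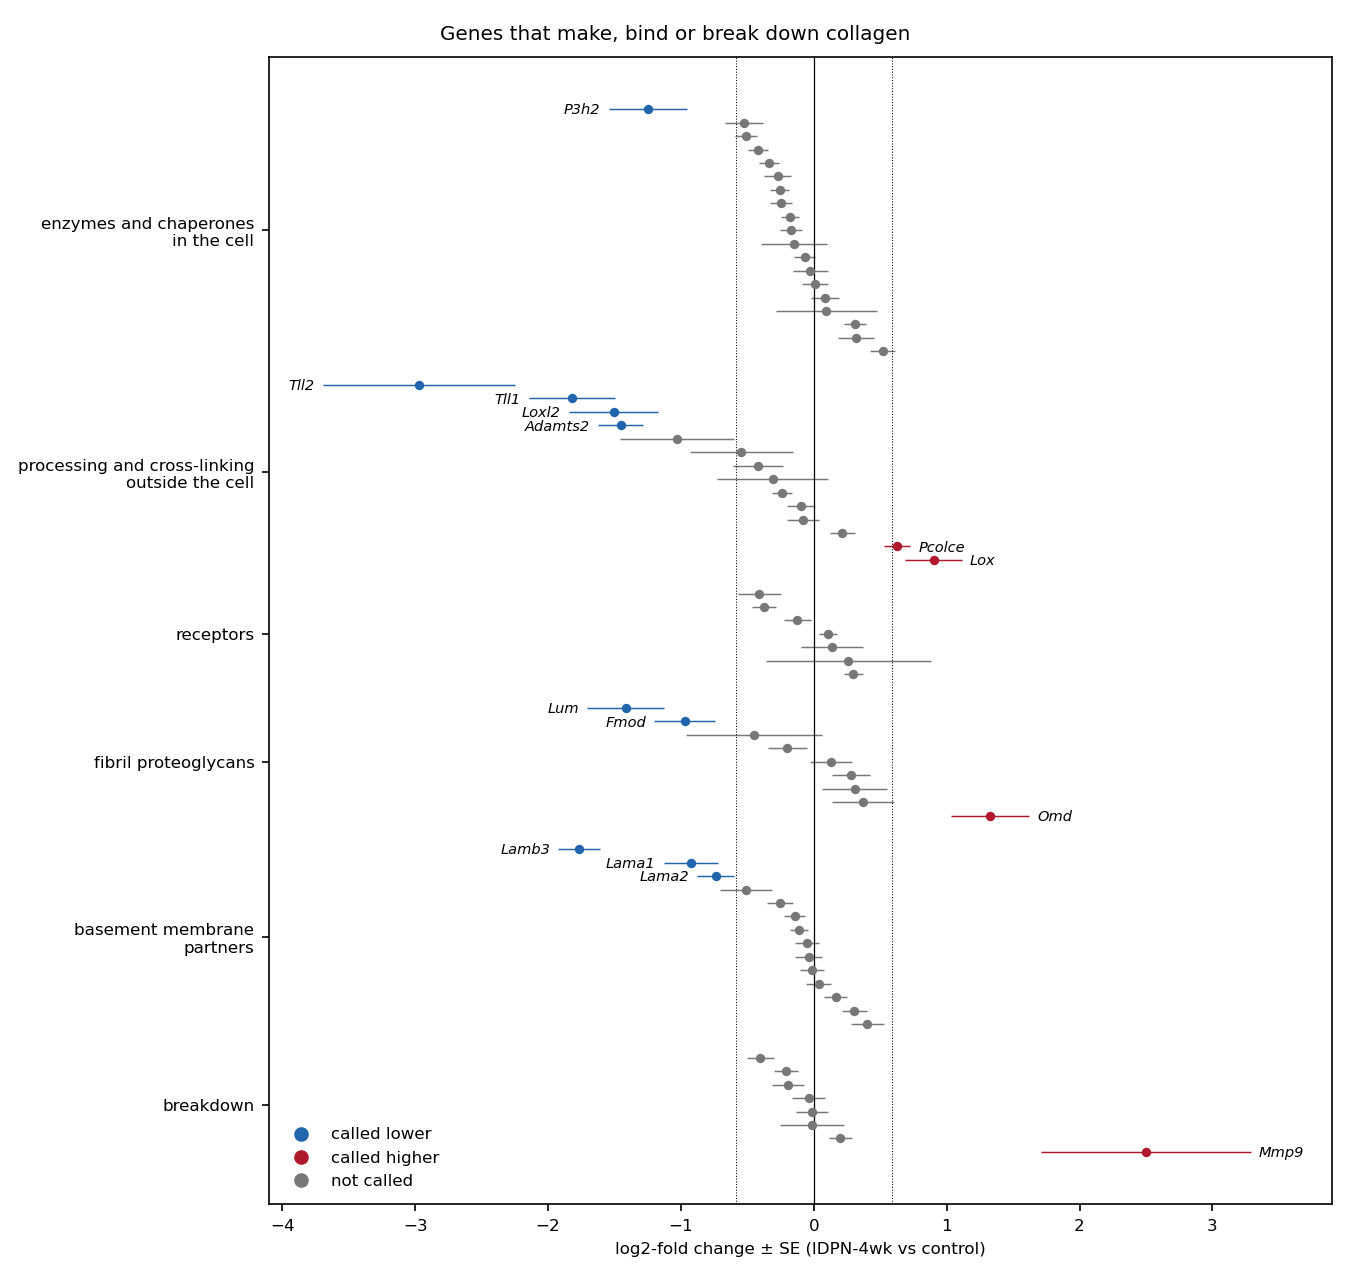
Log2-fold change ± SE (IDPN-4wk against control, n = 3 rats per group) for the tested genes of 6 lists around collagen, a row per gene. Named points passed both thresholds. The processing and cross-linking list holds 4 named genes on the left and 2 on the right, and the receptor list holds none.

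Proteoglycans that coat fibrils gave 3 calls among 9 tested (33.3%, against 9.71% of all genes). Fmod, fibromodulin, was at 250, 229 and 240 CPM in the control rats and 87.8, 92.8 and 187 CPM in the exposed rats. The exposed libraries were all lower but wide apart (log2-fold change -0.97, SE 0.230, Padj 0.0143). The Fmod call was lost in DESeq2 (Padj 0.0589) and without IDPN-4wk replicate 1 (Padj 0.0574) or replicate 2 (Padj 0.0534). Lum, lumican, which like Fmod governs fibril thickness, averaged 20.3 CPM in the control rats and 7.68 CPM in the exposed rats, without overlap (-1.42, SE 0.287, Padj 0.00633). Omd, osteomodulin, was upregulated, from 8.33, 3.70 and 3.47 CPM to 12.1, 14.1 and 12.9 CPM (1.33, SE 0.293, Padj 0.0101). Dcn, decorin, with the highest mean CPM of the list, had a value of 0.13 (Padj 0.610).

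Non-collagen parts of the basement membrane gave 3 calls among 14 tested (21.4%), all laminin chains and all lower, against 6.62% of all genes called lower. Lamb3, a chain of epithelial laminin-332, was at 372, 474 and 401 CPM in the control rats and 91.5, 151 and 124 CPM in the exposed rats. This was the clearest change of the list (-1.76, SE 0.158, Padj 5.18e-05). Lama1 was downregulated from 14.0 to 7.32 CPM on average (-0.93, SE 0.202, Padj 0.00958). Lama2, the laminin chain of muscle and peripheral nerve, was downregulated from 117 to 70.2 CPM (-0.74, SE 0.139, Padj 0.00438). Lama5 rose by less than 1.5-fold (0.30, Padj 0.0448). Lamb2 and Nid1, the latter a link between laminin and type IV collagen, had values of -0.11 (Padj 0.280) and 0.04 (Padj 0.822).

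Collagen receptors gave 0 calls among 7 tested in edgeR, where 9.71% of all genes were called, and DESeq2 also called 0. With 7 genes, nothing is read from that count. In edgeR, 3 of the 7 had an unadjusted p under 0.05, against 4744 of all 14352 genes tested. Below the fold threshold, the receptor kinase Ddr1 rose (0.30, Padj 0.0162, and up to 0.0772 with a library left out) and Ddr2 fell (-0.38, Padj 0.0148). Itgb1, the beta subunit shared by the collagen-binding integrins, had a value of 0.11 (Padj 0.327).

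Genes of collagen breakdown gave 1 call among 8 tested (9.71% of all genes), and 0 among the 7 with all libraries over the filter limit. Mmp9, a gelatinase that also cleaves type IV collagen, had 3, 0 and 9 counts in the control rats and 39, 23 and 13 counts in the exposed rats (Padj 0.0484). It passed the filter through the exposed group alone and had few counts in the control rats, so no fold change is given, and the call was lost without control replicate 1 or 2 or IDPN-4wk replicate 1 or 2 (Padj from 0.0712 to 0.183). The sum of 7 macrophage markers, a cell type that makes Mmp9, was 80.8–112 CPM in the control rats and 66.9–130 CPM in the exposed rats. C1qb alone was upregulated (14.3%, against 3.09% of all genes), and nothing is read from a single call. The part of these markers in the Mmp9 counts was not tested. The protease inhibitor Timp1 had a value of -0.40 (Padj 0.0197, and 0.0609 with library size alone) and Timp3, the highest of the list in CPM, had a value of -0.21 (Padj 0.125).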

How the data were processed

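RNA was extracted from the vestibular epithelium of each rat, and per the labels the libraries followed SMART-seq2, with oligo-dT priming and no strand information, so genes that overlap in antisense could not be told apart. The authors mapped reads to the rat build Rnor6.0 with STAR 2.5.3a and estimated counts per gene with RSEM 1.3.0, versions as in the submitters' processing notes. The deposited values are expected counts, and all were whole numbers. Close paralogs share reads and are less certain.

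Groups came from the treatment label. Low genes were removed by filterByExpr with a minimum count of 10 and a minimum total of 15. After TMM scaling, edgeR 4.0.16 (R 4.3.3) gave two-sided quasi-likelihood tests, and p values were adjusted by Benjamini-Hochberg across all 14352 genes. SEs came from the quasi F statistic. The limit of 3 counts covers counting error only, since reads had no molecular identifiers.

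The collagen genes, the lists around them and the marker lists were chosen with earlier results of these data known. Named in each library were collagens past both thresholds or Padj alone and the 3 of highest CPM in each class, and from the other lists the genes called and the 2 of highest CPM. Col1a2, Ddr2, further genes with a Padj under 0.05 and the other members given by mean or fold change alone were named after their values were seen. Hspg2 was read from a clone-named row, and the listed Mia3, Crtap, Pcolce2, Lama3, Pecam1, Dct and Itgam were not analysed here. Promoter sequences are from RefSeq (GRCr8) and no coordinate was carried over from Rnor6.0. Alternatives were DESeq2 1.42.0, other scalings and filters, glmTreat, and leaving out each library.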

Additional observations from a re-analysis of the deposited data

How the results depend on the processing

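No paired analysis was possible because the labels give no replicate numbers. Each of the 5 called collagens kept its call when any single library was left out. Without one library at a time, 3 to 6 collagens were called lower and 2 to 3 higher. The highest number lower, 6, was reached without IDPN-4wk replicate 3, and the cause was not tested. With Padj alone and no fold threshold, the calls were 8 collagens lower, 4 higher, 15 processing genes, 2 receptors, 5 basement membrane partners and 2 breakdown genes. With glmTreat, which tests against the 1.5-fold limit itself, they were 0 collagens higher, 2 processing genes, 0 fibril proteoglycans, 1 basement membrane partner and 0 breakdown genes. Of the called collagens, Col6a5 and Col14a1 passed glmTreat, and Col4a5 (Padj 0.193), Col1a1 (0.715) and Col5a3 (0.285) did not. A mean count of at least 50 removed Col6a5, left 2 collagens called lower and also left 0 breakdown genes, and leaving out a library gave 0 to 1. The medians stayed negative with any library left out, from -0.32 to -0.10 for fibrillar, -0.16 to -0.083 for basement membrane and -0.29 to -0.12 for other collagens. The median of the basement membrane collagens was -0.016 with library size alone and -0.29 for the type IV chains only, and the class sum was 106% of control with library size alone. The class median was -0.22 in DESeq2 and -0.21 in edgeR without a filter, both of which also held Col4a6, removed by the main filter. Signs turned for genes near 0. Col9a1 was at 0.012 with library size alone. With a library left out, Col15a1 ranged from -0.039 to 0.067, Col9a3 from -0.073 to 0.086, Dcn from -0.053 to 0.317 and Nid1 from -0.045 to 0.120. Among genes with all 6 libraries over the filter limit, chosen after seeing the data, 0 breakdown genes were called. Low counts limited Col6a5, Col13a1, Tll2, Mmp9 and Matn3.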

Other observations

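Several collagen genes are neighbours in the GRCr8 annotation with no protein-coding gene between them, and their values did not always have the same sign. Col3a1 and Col5a2 are such neighbours, with log2-fold changes of 0.25 (Padj 0.0302) and -0.54 (Padj 0.0236) in edgeR. Col6a5 and Col6a6 are another such pair, with -2.08 (Padj 0.00312) and 0.69 (Padj 0.144). Col6a1 and Col6a2, also adjacent, had -0.39 (Padj 0.116) and 0.16 (Padj 0.330). The differences between neighbours were not tested.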
